A study of Rattus norvegicus with 6 samples.

Results

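In this study of the heart in diabetes, 9 genes of the oxygen-sensing pathway and its output were followed in the left ventricle of diabetic and normal rats: Hif1a, Epas1, Egln1, Egln3, Cited2, Vegfa, Vegfb, Adm and Ddit4. They were taken as every probe set whose annotation names one of these genes and no other, which gave 14 of 15866 probe sets, for 9 of the 10411 genes named on the array. Total RNA was measured in 3 rats labelled diabetic and 3 labelled normal, with 1 single-colour Affymetrix array per rat. The labels name the tissue as left ventricle and state neither how diabetes was produced nor its duration, nor the strain, sex, age, feeding state or time of sampling, so none of these can be set beside the values.

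Cells sense oxygen through the hypoxia-inducible factors, whose alpha subunits are Hif1a and Epas1 (HIF-2 alpha). In the presence of oxygen the prolyl hydroxylases Egln1 and Egln3 mark the alpha subunits for destruction, so much of the control lies in the protein, which an expression array does not measure. When oxygen is short the alpha subunits recruit the coactivators p300 and CBP and switch on genes such as Vegfa, Adm, Ddit4, Egln3 and Cited2. Cited2 competes with the alpha subunits for those coactivators. In the heart, Vegfa and Vegfb act on the vessels that supply the muscle.

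Cited2 was the member that changed, and it rose at both of its probe sets. The 250 bases before the start of Cited2 and of Vegfa are shown because both are known targets of the hypoxia-inducible factors and they had the highest and the lowest log2 fold change of the members (RefSeq, rat build GRCr8, where all 9 genes had a promoter entry). Capitals mark the core of the hypoxia response element, searched as ACGTG and GCGTG on both strands. The Cited2 stretch is chr1:14132053-14132302 on the + strand, and the Vegfa stretch is chr9:22452604-22452853 on the + strand.
Cited2: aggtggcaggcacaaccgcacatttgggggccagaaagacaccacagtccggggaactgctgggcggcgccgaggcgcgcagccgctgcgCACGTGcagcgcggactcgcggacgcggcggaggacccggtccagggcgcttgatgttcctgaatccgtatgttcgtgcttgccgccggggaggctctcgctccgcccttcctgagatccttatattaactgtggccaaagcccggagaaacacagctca
Vegfa: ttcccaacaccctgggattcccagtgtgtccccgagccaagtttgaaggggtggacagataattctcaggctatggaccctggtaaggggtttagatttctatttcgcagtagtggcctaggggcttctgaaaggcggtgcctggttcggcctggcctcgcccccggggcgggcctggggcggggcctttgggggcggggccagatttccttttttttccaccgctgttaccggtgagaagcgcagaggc
In Cited2 the 2 matches, 1 on each strand, overlap in a single palindrome that begins 160 bases before the start. The Vegfa window held none of these letters, which says nothing of other parts of the gene. Of the 9 members, 5 had at least 1 match in this window (Hif1a, Egln1, Cited2, Vegfb and Ddit4), against 36.7% of all 33469 promoters of that length and 63.0% of the 8454 promoters with a G and C content of at least 60%. Among the members the G and C content ran from 46.8% in Egln3 to 85.2% in Egln1. A match of 5 letters is a description and not a binding site.

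Signals are linear intensities as deposited, and tests used log2(signal + 16), a scale that understates the change of dim genes. Probe sets in the upper part of the array by mean signal (above the 40th percentile) were tested with limma, and a probe set is called changed where its p, adjusted by the Benjamini-Hochberg method across all 9519 of them, is under 0.05. Of the 14 member probe sets, 12 were tested and covered all 9 genes. The other 2, the dimmer ones of Hif1a and Egln1, lay below that limit. Two-sided exact permutation tests of 3 against 3 arrays cannot give a p below 0.1, so the calls rest on limma's model. The number of arrays limits the precision throughout. Of the 12 tested member probe sets 2 rose and 0 fell, the 2 being those of Cited2, where 2.88% of all tested probe sets changed (1.5% rose and 1.38% fell). At an unadjusted p under 0.05 there were 5 of 12, where 19.9% of all tested probe sets had such a p. The groups did not overlap at 4 of the 12, where 25.7% of all tested probe sets did not overlap. The median log2 fold change of the 12 was 0.14, beside -0.01 for all tested probe sets.

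The ventricle label was set against marker genes first. All 8 tested cardiomyocyte markers were bright, from Ryr2, the calcium release channel, with a mean signal of 1941 in diabetic and 2707 in normal arrays, to Myl2, the ventricular myosin light chain, with 44728 in diabetic and 47118 in normal arrays (lowest and highest by the mean over all 6 arrays). Of these 8, the slow myosin Myh7 rose (log2 1.49 ± 0.21, adjusted p = 0.00888) and the fast myosin Myh6 fell (log2 -1.55 ± 0.29, adjusted p = 0.0281). The 9 tested endothelial markers summed to a signal of 10076 to 11224 in diabetic arrays and 10359 to 11248 in normal arrays, and 1 of them, the receptor Tie1, fell (log2 -0.94 ± 0.17, SE, adjusted p = 0.0222). Of the 7 tested fibroblast markers 4 fell (Col1a1, Col1a2, Col3a1 and Lum) and the sum was 23916 to 24585 in diabetic arrays and 35846 to 40512 in normal arrays. None of the 7 mural cell, 7 macrophage or 3 erythroid markers tested changed. Over all 6978 genes, each read at its brightest tested probe set, 2.94% changed (1.53% rose and 1.4% fell). Of the 4 atrial markers Nppa rose (log2 2.76 ± 0.18, adjusted p = 0.00087), which carried most of the summed signal of 20566 to 30669 in diabetic arrays and 3871 to 5176 in normal arrays. Myl7, Myl4 and Sln did not pass. Myl7 had signals of 328, 468 and 131 in the diabetic arrays, against 812, 162 and 100 in the normal arrays. Myl4 had 213, 525 and 195, against 413, 180 and 110. Sln had 292, 326 and 466, against 135, 10.5 and 399 (log2 1.64 ± 0.79, adjusted p = 0.292). All 4 atrial markers had positive log2 fold changes, with a median of 1.04. Whether the arrays differ in atrial tissue was not tested. No marker was listed at 0. In whole tissue, fewer cells of a type and less RNA per cell cannot be told apart. Normal array 3 lay apart from the other normal arrays at several genes of the lists below, such as the transferrin receptor Tfrc with a signal of 4501 there, against 592 and 388 in normal arrays 1 and 2.

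Cited2, which competes with the hypoxia-inducible factors for p300 and CBP, was measured by 2 probe sets. Both are annotated to the same source sequence, so they are not independent measures of the gene. The brighter had signals of 3370, 3418 and 3129 in the diabetic arrays, against 1618, 1413 and 1383 in the normal arrays. Every diabetic array was about equally high, and the lowest of them lay far above the highest normal array. Means were 3305 ± 155 in diabetic and 1471 ± 128 in normal arrays (SD, n = 3 each), a log2 fold change of 1.16 ± 0.14 (SE, 95% confidence interval 0.84 to 1.48, limma adjusted p = 0.00618, exact permutation p = 0.1). By its unadjusted p this probe set ranked among the first 26 of the 9519. The dimmer probe set had signals of 1555, 2212 and 2017 in the diabetic arrays, against 878, 940 and 760 in the normal arrays. Here too the groups did not overlap, with diabetic array 1 the lowest of its group. Its log2 fold change was 1.14 ± 0.18 (interval 0.75 to 1.54, adjusted p = 0.0128). The within-array log2 ratio of the 2 probe sets averaged 0.79 ± 0.28 in diabetic and 0.77 ± 0.16 in normal arrays (SD, n = 3 each), a difference of 0.02 (exact permutation p = 0.8, 0.8 adjusted over the 7 within-array ratios examined). With any 1 array left out the brighter probe set stayed at 1.12 to 1.23 with an adjusted p of at most 0.0270, while the dimmer passed except without diabetic array 2 (1.04, adjusted p = 0.0527) and without normal array 3 (1.06, adjusted p = 0.0511). With no limit on dim probe sets, where 15866 were tested and 18 changed, the adjusted p was 0.0660 at the brighter and 0.0935 at the dimmer, so neither passed.

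**Figure D1:**
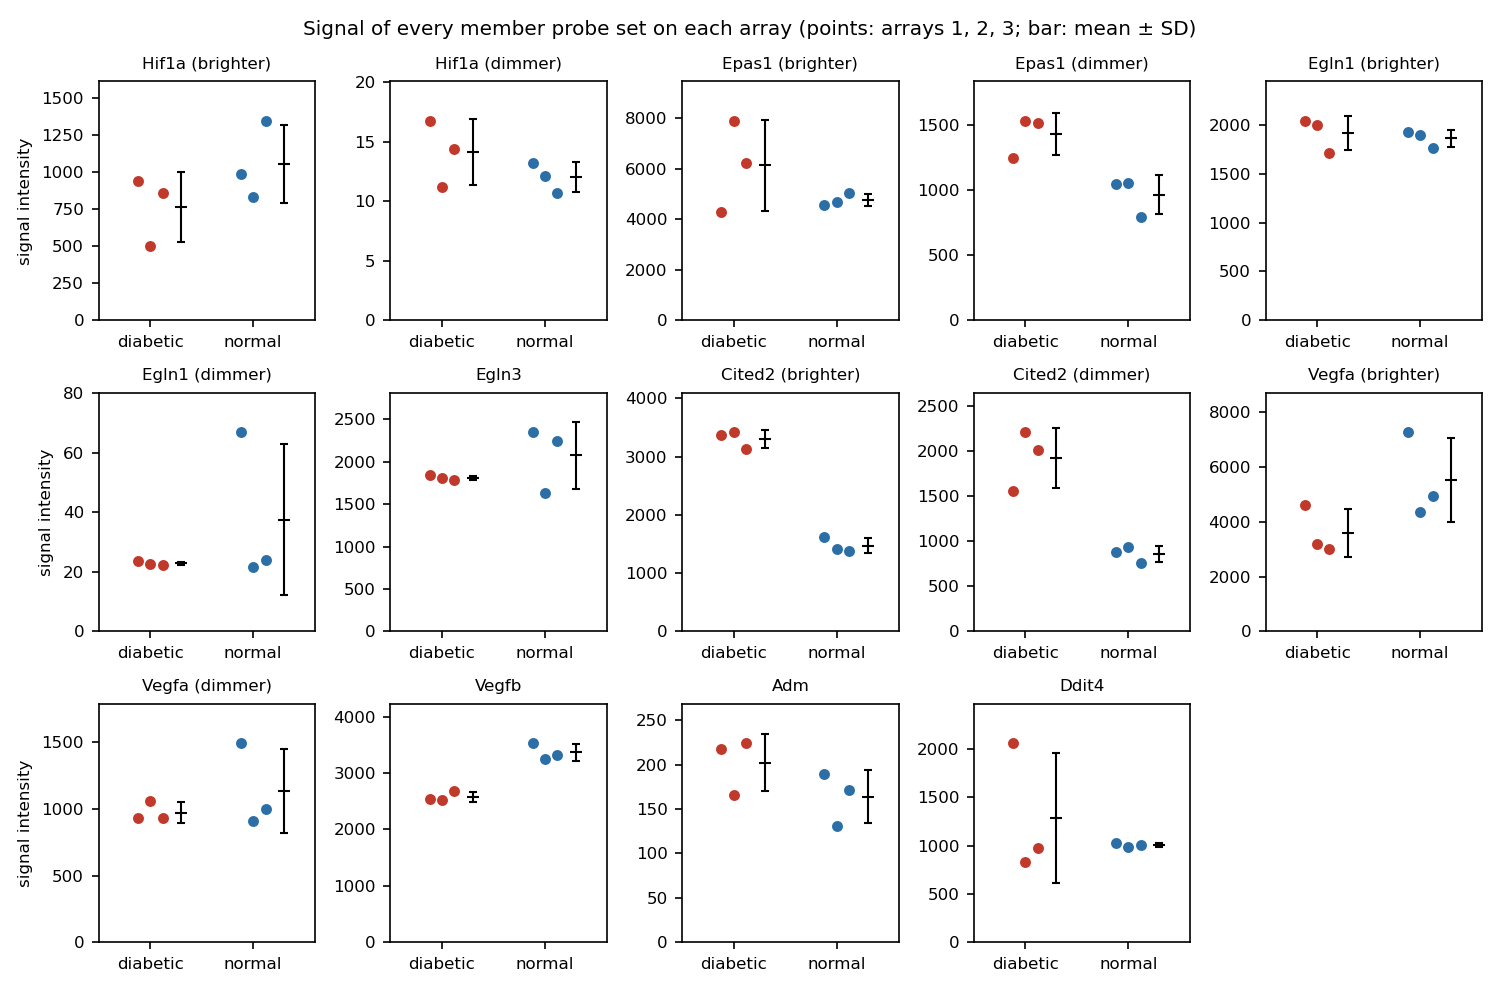
Signal intensity (linear, each panel with its own axis from 0) of all 14 member probe sets, with 1 point per array, diabetic arrays 1 to 3 on the left of each panel and normal arrays 1 to 3 on the right, and the mean ± SD beside each group. The groups stand clear of each other at both Cited2 probe sets, at the dimmer Epas1 probe set and at Vegfb, while diabetic array 1 alone is high for Ddit4 and normal array 1 is high at both Vegfa probe sets.

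The alpha subunits showed no change past the threshold. Hif1a, the widely expressed alpha subunit, had signals of 937, 499 and 858 in the diabetic arrays, against 988, 832 and 1341 in the normal arrays. The groups overlapped, diabetic array 2 being the lowest and normal array 3 the highest. On the log2 scale the difference was -0.48 ± 0.26 (interval -1.07 to 0.12, adjusted p = 0.352), and it was -0.20 without diabetic array 2 and -0.29 without normal array 3. The second Hif1a probe set was near the low end of the array, at 16.7, 11.2 and 14.4 in diabetic and 13.2, 12.1 and 10.7 in normal arrays, and was not tested.

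Epas1, the alpha subunit known for its high expression in endothelium, had positive log2 fold changes at both probe sets, neither past the threshold. The brighter had signals of 4286, 7877 and 6239 in the diabetic arrays, against 4558, 4675 and 5036 in the normal arrays. Diabetic arrays 2 and 3 were above every normal array and diabetic array 1 was below them. The log2 fold change was 0.32 ± 0.22 (interval -0.17 to 0.81, adjusted p = 0.450), and it was 0.12 without diabetic array 2 and 0.56 without diabetic array 1 (adjusted p = 0.132). The dimmer probe set had signals of 1246, 1529 and 1518 in the diabetic arrays, against 1050, 1052 and 792 in the normal arrays, with no overlap, as at 12.1% of all tested probe sets in that direction. Its log2 fold change of 0.57 ± 0.17 had an interval above 0 (0.18 to 0.95) and an adjusted p of 0.111, and was 0.43 without normal array 3 (adjusted p = 0.299). The 9 endothelial markers, whose summed signal overlapped between the groups, had a median log2 fold change of 0.07. They ran from -0.94 in Tie1 (adjusted p = 0.0222) to 0.68 in Pecam1 (adjusted p = 0.147).

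The within-array difference between Epas1 and Hif1a was also examined, with these pairs chosen after the values were seen. The log2 ratio of the dimmer Epas1 to the Hif1a probe set averaged 0.93 ± 0.60 in diabetic and -0.11 ± 0.57 in normal arrays (SD, n = 3 each). The groups did not overlap (exact permutation p = 0.1, 0.35 adjusted over 7 ratios), a value the design cannot go below unadjusted. With the brighter Epas1 probe set the groups overlapped and the difference was 0.80 (exact permutation p = 0.3). The log2 ratio of Cited2 at its brighter probe set to Hif1a averaged 2.14 ± 0.52 in diabetic and 0.50 ± 0.40 in normal arrays. These groups did not overlap either (exact permutation p = 0.1, 0.35 adjusted). Cited2 and the dimmer Epas1 probe set already separated the groups alone, and Hif1a had a negative log2 fold change. The separation of their ratios therefore follows from those values and is no further result.

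Neither of the oxygen-dependent hydroxylases passed the threshold. Egln1, the main oxygen sensor of the family, had signals of 2034, 2000 and 1712 in the diabetic arrays, against 1927, 1891 and 1761 in the normal arrays. The groups overlapped fully. Egln1 differed by 0.04 ± 0.14 on the log2 scale (adjusted p = 0.915), and its interval of -0.29 to 0.36 leaves room for a modest change either way. The other Egln1 probe set was dim and not tested, at 23.5, 22.5 and 22.4 in diabetic and 66.8, 21.6 and 24.1 in normal arrays, where normal array 1 alone was high. Egln3, a hydroxylase that is itself induced by low oxygen, had signals of 1838, 1806 and 1781 in the diabetic arrays, against 2346, 1625 and 2250 in the normal arrays. The diabetic arrays were nearly equal to each other (SD 28.5) and lay within the wider normal range (SD 391). Its log2 fold change was -0.18 ± 0.17 (interval -0.57 to 0.21, adjusted p = 0.619), and it was -0.080 without normal array 1, -0.11 without normal array 3 and -0.34 without normal array 2.

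**Figure D2:**
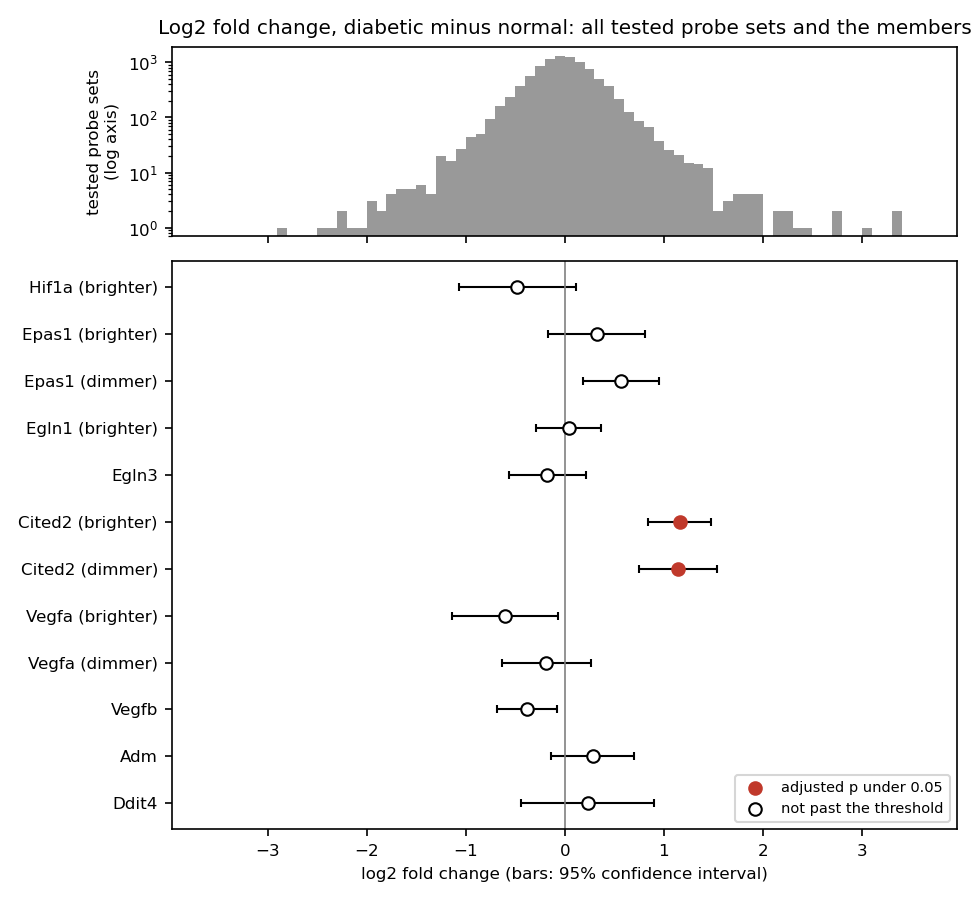
Log2 fold change, diabetic minus normal, for the 12 tested member probe sets with 95% confidence intervals (lower panel), under a histogram of all 9519 tested probe sets on a log axis (upper panel). Both Cited2 probe sets (filled, at 1.16 and 1.14) passed the threshold and lie beyond the other members, which are all within -0.60 to 0.57.

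Neither VEGF ligand passed the threshold, and all 3 of their probe sets had negative log2 fold changes. Vegfa, the main growth signal for blood vessels, had signals of 4597, 3199 and 2989 at its brighter probe set in the diabetic arrays, against 7253, 4336 and 4937 in the normal arrays. Diabetic array 1 lay above normal array 2, so the groups overlapped, and normal array 1 was far higher than the rest. The log2 fold change was -0.60 ± 0.24 (interval -1.14 to -0.07, unadjusted p = 0.0301, adjusted p = 0.198, exact permutation p = 0.2), and -0.39 without normal array 1. The dimmer Vegfa probe set had signals of 927, 1060 and 927 in the diabetic arrays, against 1489, 911 and 995 in the normal arrays. Its log2 fold change was -0.19 ± 0.20 (adjusted p = 0.657), and it turned to 0.026 without normal array 1, so its sign rests on that array. The difference between the 2 Vegfa probe sets in their shift was -0.42 on the log2 scale (exact permutation p = 0.3).

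Vegfb, a VEGF relative abundant in heart muscle that binds the receptor Flt1, had signals of 2538, 2521 and 2677 in the diabetic arrays, against 3526, 3244 and 3326 in the normal arrays. The groups were tight and did not overlap, as at 13.6% of all tested probe sets in that direction. Means were 2579 ± 85.6 in diabetic and 3365 ± 145 in normal arrays (SD, n = 3 each), a log2 fold change of -0.38 ± 0.13 (interval -0.69 to -0.08, unadjusted p = 0.0191, adjusted p = 0.158). With each array left out it stayed at -0.41 to -0.35 and did not pass. Over the whole array no probe set with a log2 fold change of this size was called, the smallest called one being 0.62 in size.

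Of the 10 genes in the VEGF family and its receptors 6 were tested, and 1 fell and 0 rose, where 2.94% of 6978 genes, each read at its brightest tested probe set, changed and 1.4% fell. The list's median log2 fold change was -0.44, beside -0.01 for all genes. The gene that fell was Nrp1, neuropilin 1, a coreceptor for Vegfa on endothelium and other cells. Nrp1 had signals of 1124, 1164 and 1399 in the diabetic arrays, against 2660, 3059 and 3056 in the normal arrays. All diabetic arrays lay well below all normal arrays, for a log2 fold change of -1.24 ± 0.15 (adjusted p = 0.00618). Its dimmer probe set was at -0.96 ± 0.26 (adjusted p = 0.0834). In the same arrays 4 of the 7 tested fibroblast markers fell. Dcn at -0.01 (adjusted p = 0.982), Pdgfra at -0.24 (adjusted p = 0.562) and Dpt at -0.36 (adjusted p = 0.427) did not pass. The part of fibroblasts in the Nrp1 value was not tested. Vegfc, which acts mainly on lymphatic vessels, was at -0.50 on the log2 scale (adjusted p = 0.164). The receptors Flt1 and Kdr were at 0.33 (adjusted p = 0.413) and -0.04 (adjusted p = 0.932).

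Adm, the precursor of the vasodilator peptide adrenomedullin, was dim, with signals of 217, 166 and 224 in the diabetic arrays, against 190, 131 and 171 in the normal arrays. The groups overlapped. Adm differed by 0.28 ± 0.18 on the log2 scale (interval -0.13 to 0.70, adjusted p = 0.439), and by 0.14 without normal array 2 and 0.41 without diabetic array 2. Of the other tested genes of the system, its receptor Calcrl was at -0.36 (adjusted p = 0.407) and the receptor partner Ramp2 at 0.13 (adjusted p = 0.769). So 0 of 3 changed, where 2.94% of all genes changed.

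Ddit4 (REDD1), which restrains the growth kinase complex mTORC1, had a difference whose sign rested on a single array. Its signals were 2058, 827 and 973 in the diabetic arrays, against 1026, 987 and 1006 in the normal arrays. Diabetic array 1 was high, diabetic arrays 2 and 3 lay below every normal array, and the normal arrays were almost equal (1006 ± 19.3, SD, n = 3). The log2 fold change of 0.23 ± 0.30 (interval -0.44 to 0.90, adjusted p = 0.721) turned to -0.16 without diabetic array 1 (adjusted p = 0.601).

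**Figure D3:**
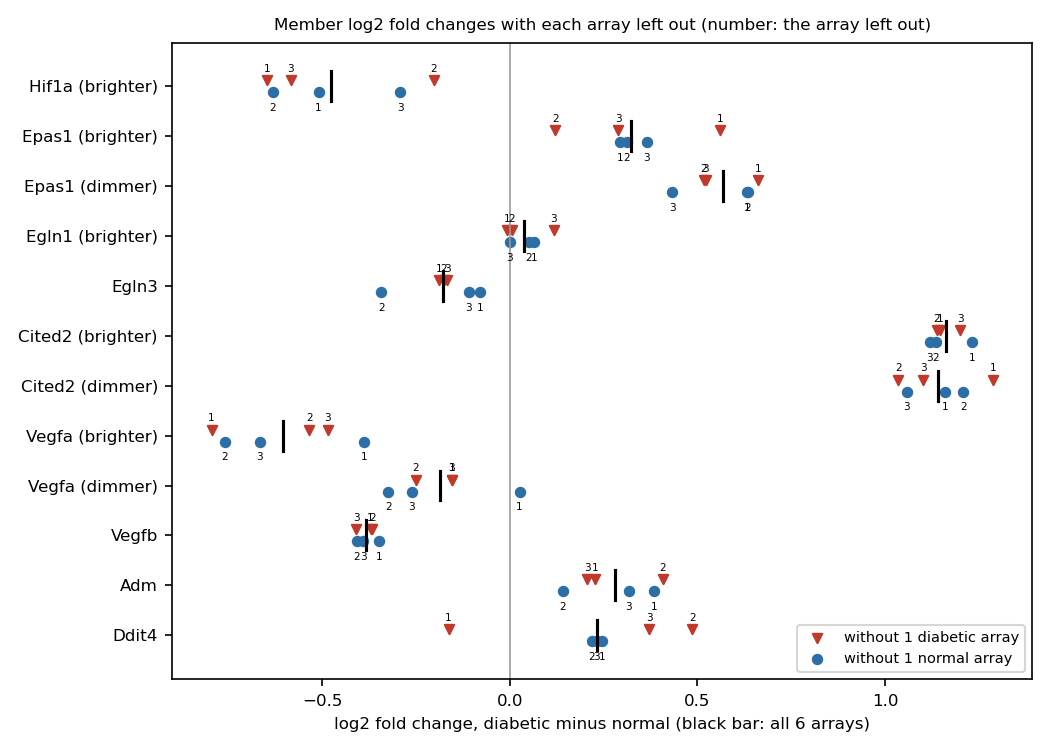
Log2 fold change of the 12 tested member probe sets with each array left out in turn (triangles for a diabetic array, circles for a normal array, numbered by the array left out) and with all 6 arrays (black bar). Cited2 stays above 1.03 and Vegfb between -0.41 and -0.35, while Ddit4 changes sign without diabetic array 1 and the dimmer Vegfa probe set without normal array 1.

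Other genes around Ddit4 were looked at in a list of 12 genes of mTORC1 and its control, all of which were tested. Of these 2 rose and 0 fell, where 2.94% of all genes changed. Eif4ebp1, the repressor of translation that mTORC1 inactivates, had signals of 3322, 3772 and 3400 in the diabetic arrays, against 1087, 1091 and 802 in the normal arrays. The log2 fold change was 1.81 ± 0.17 (adjusted p = 0.00184), and with any 1 array left out it stayed at 1.67 to 1.89 with an adjusted p of at most 0.0108. Ddit4l, a relative of Ddit4 with the same inhibitory role, had signals of 2486, 2280 and 2493 in the diabetic arrays, against 1700, 1286 and 1046 in the normal arrays. Its log2 fold change of 0.87 ± 0.19 passed narrowly (adjusted p = 0.0488) and was lost without any 1 array other than normal array 1, at most at 0.135 without normal array 3. The kinase Mtor itself was at -0.15 (adjusted p = 0.689), Tsc2 at -0.09 (adjusted p = 0.803) and Rheb at -0.02 (adjusted p = 0.959). Higher but not past the threshold lay Rptor, the mTORC1 scaffold, at 0.56 (adjusted p = 0.172), Eif4ebp2 at 0.53 (adjusted p = 0.131) and Tsc1 at 0.37 (adjusted p = 0.205). The list's median was 0.12, beside -0.01 for all genes.

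Among 17 oxygen-sensing factors and regulators 13 were tested, and Cited2 was the only 1 to change. That is 7.69%, where 2.94% of all genes changed. The list's median was 0.0034. Arnt, the shared beta subunit, was at -0.01 (adjusted p = 0.974), Vhl, which carries hydroxylated alpha subunits to destruction, at 0.0034 (adjusted p = 0.995), Ep300, which encodes p300, at -0.01 (adjusted p = 0.978) and Crebbp, which encodes CBP, at 0.07 (adjusted p = 0.864). Cited4, a relative of Cited2, was at -0.16 (adjusted p = 0.678).

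Genes known to be induced by low oxygen passed the threshold in both directions. Of 35 such genes 31 were tested, and 3 rose and 2 fell. That is 16.1%, where 2.94% of all genes changed. Log2 fold changes were positive at 18 and negative at 13, with a median of 0.04. This list, like the others, was chosen with earlier results of these data known, so its share is only a description. The list takes in Vegfa, Adm, Ddit4 and Egln3, none of which passed. Ndrg1, a stress-response gene, had signals of 2681, 2420 and 1822 in the diabetic arrays, against 877, 636 and 595 in the normal arrays (log2 fold change 1.69 ± 0.20, adjusted p = 0.00618). Bnip3, which promotes mitophagy, had signals of 9606, 12457 and 11468 in the diabetic arrays, against 5411, 4268 and 3398 in the normal arrays (log2 fold change 1.37 ± 0.20, adjusted p = 0.0103). The groups were far apart at both genes, and both passed with any 1 array left out, Ndrg1 with an adjusted p of at most 0.0270 and Bnip3 of at most 0.0442. Higd1a, a mitochondrial protein, had signals of 3580, 3026 and 3177 in the diabetic arrays, against 6030, 5383 and 6305 in the normal arrays. Higd1a fell with a log2 fold change of -0.85 ± 0.15 (adjusted p = 0.0197), lost without diabetic array 2 or 3 or normal array 1 or 3, at most at 0.0811 without normal array 3.

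The others that passed were 2 glycolytic genes. Pfkfb3 rose (log2 1.18 ± 0.24, adjusted p = 0.0381, but 0.114 at its dimmer probe set, and lost without any 1 array other than normal array 1, at most at 0.0992 without normal array 3). Ldha, named after its values were seen, fell (log2 -0.66 ± 0.14, adjusted p = 0.0488, lost with any 1 array left out, at most at 0.136 without diabetic array 2). Glycolytic and glucose-uptake genes that did not pass included Pgk1 at -0.18 (adjusted p = 0.486), Aldoa at 0.04 (adjusted p = 0.923), Eno1 at 0.04 (adjusted p = 0.923) and the glucose transporter Slc2a1 at -0.60 (adjusted p = 0.176). Also short of the threshold were Hk2 at -0.93 (adjusted p = 0.0987) and Hk1 at -0.08 (adjusted p = 0.886). With no limit on dim probe sets, 1 of all these list genes passed, Eif4ebp1 (adjusted p = 0.0451).

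**Figure D4:**
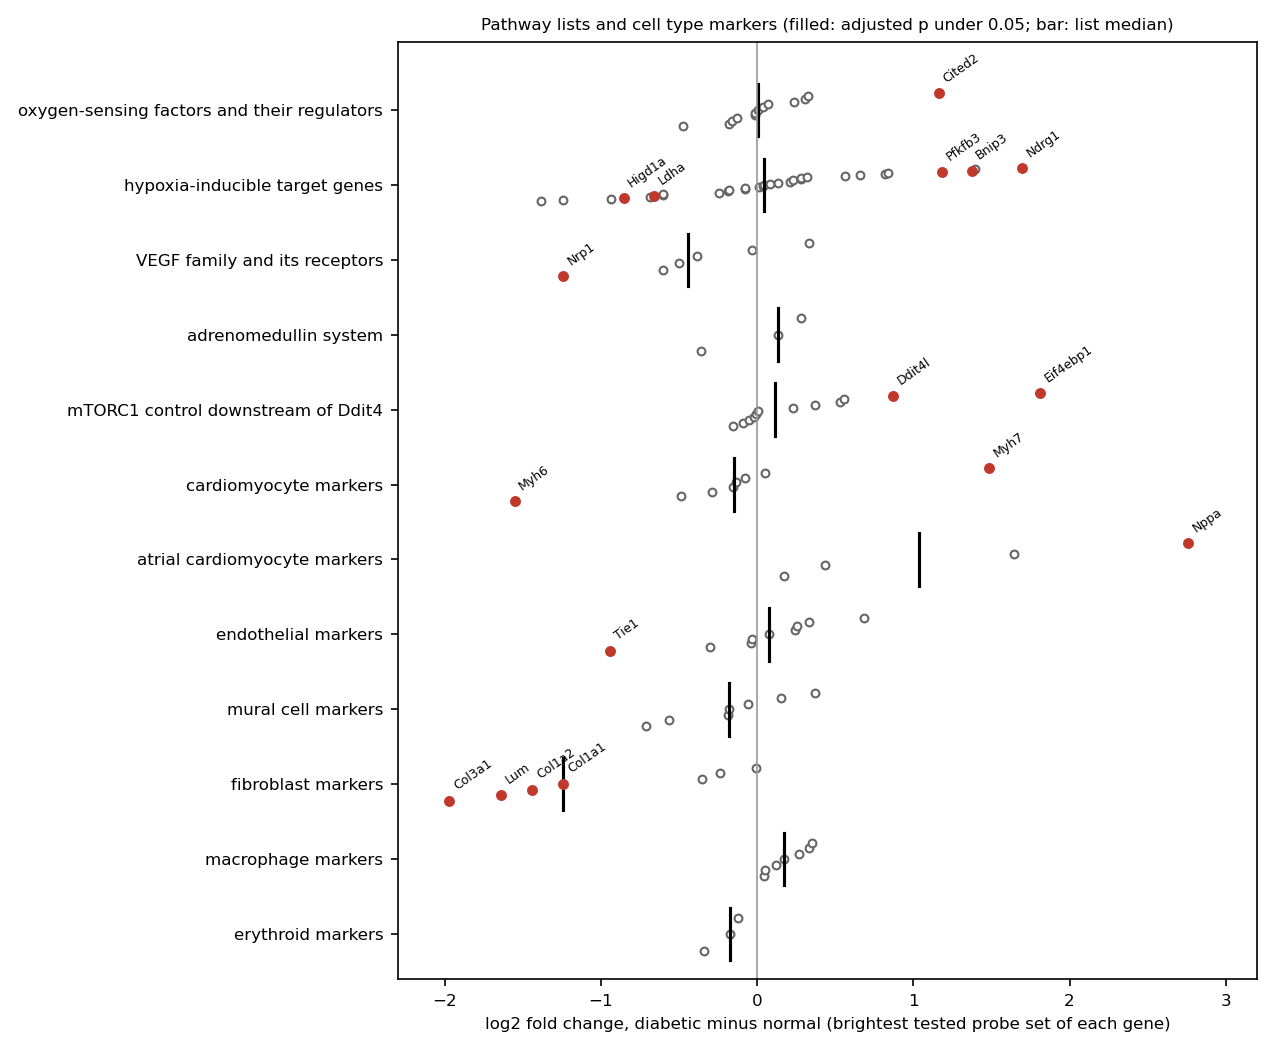
Log2 fold change, diabetic minus normal, of each gene, read at its brightest tested probe set, in the 5 pathway lists and 7 cell type marker lists (filled points past the threshold, named; black bars, list medians). Cited2 is alone past the threshold among the oxygen-sensing genes, the hypoxia-inducible genes pass on both sides of 0, and the endothelial markers scatter around 0 with a median of 0.07.

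The array-by-array pattern of 4 members was matched against all other tested genes by the root mean square distance between log2 profiles, each centred on its own mean over the 6 arrays. Nearest to Cited2 at its brighter probe set lay Nudt7 (distance 0.057), Rnf144b (0.078) and Bud31 (0.11), beside a median distance of 0.63 over all tested probe sets. Nudt7, a peroxisomal hydrolase of coenzyme A, had signals of 1742, 1898 and 1592 in the diabetic arrays, against 855, 687 and 694 in the normal arrays, so it shared the step between the groups. Nearest to Vegfa were Fam43a (0.13), Klrk1 (0.13) and Stau2 (0.13), to Egln3 were Alyref (0.040), Frmd8 (0.050) and Nudt4 (0.057), and to Hif1a were Acsf3 (0.060), Rab40c (0.11) and Slc25a30 (0.12). Acsf3 shared with Hif1a the low value of diabetic array 2 and the high value of normal array 3, at 565, 319 and 494 in diabetic and 627, 492 and 781 in normal arrays. Over 6 arrays and 9519 probe sets some profiles lie close, and these neighbours are given as a description.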

How the data were processed

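Expression was measured on 6 arrays, 3 diabetic and 3 normal, grouped by the sample titles. The values deposited are linear signal intensities; how the authors computed and normalized them is not given in the sources used. Per the labels, RNA extraction and labelling followed the manufacturer's standard steps. Means trimmed by 2% at either end came to 500.2 for each array, so intensities were used as deposited. Array medians were 180.3 to 191.3.

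The 57 control probe sets were left out. Names came from the platform annotation, updated through a rat gene table (GRCr8, for names only). Testing was limited to probe sets with a mean log2(intensity + 16) above the 40th percentile. The group difference was fitted with limma 3.58.1 under R 4.3.3 (two-sided, no covariates), and the code was tested on simulated data. Values after ± are SD for signals and SE for log2 fold changes. A gene in a list is read through its brightest tested probe set. Promoters came from RefSeq (GRCr8). Figures used matplotlib 3.10.9.

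The members, lists and rules were chosen with earlier results of these data known. Named by rule are all members, up to 4 changed genes per list by smallest p, and the 3 nearest profiles of 4 members. Other genes named from the lists, among them Ldha and all unchanged ones, and the profiles of further members fall outside that rule. Alternatives were quantile or median scaling, pseudocounts of 1 or 64, testing all probe sets or those above the 60th percentile, an intensity trend, the replicate number as a block and each array left out. A filter on the mean linear intensity, and all alternatives for the list genes, were added after seeing the data. The labels count separate rats.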

Additional observations from a re-analysis of the deposited data

How the results depend on the processing

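The count of changed probe sets over the array was 274 and moved to 18 with no filter, 437 with a filter at the 60th percentile and 527 with an intensity trend, and lay at 100 to 202 with 1 array left out (100 without diabetic array 2, 135 without diabetic array 3, 138 without normal array 2 and 100 without normal array 3). With no filter limma's prior degrees of freedom were 2.63, against 5.02 with it, and the unadjusted p of the brighter Cited2 probe set was 0.000148, against 1.76e-05. The cause of these shifts was not tested. The count of changed member probe sets was 2 and became 0 with no filter and 1 to 2 with 1 array left out. The count of changed genes over the 5 pathway lists was 9, 1 with no filter and 5 to 7 with 1 array left out (5 without diabetic array 2, diabetic array 3 or normal array 3). Among members that did not pass, the sign turned for Egln1 (-0.0066 without diabetic array 1, in a range of -0.0066 to 0.12 over the arrays left out), for the dimmer Vegfa probe set (0.026 without normal array 1, range -0.32 to 0.026) and for Ddit4 (-0.16 without diabetic array 1, range -0.16 to 0.49). No other member changed sign and none joined Cited2 past the threshold under these alternatives, the nearest being the dimmer Epas1 probe set (adjusted p = 0.0556 at the lowest) and Vegfb (0.0704 at the lowest). Adm could not be followed with a filter at the 60th percentile, which left it out.

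With the replicate number as a block, 183 probe sets changed over the array, both Cited2 probe sets still passed, and Ldha (adjusted p = 0.0826) and Ddit4l (0.0675) did not. The deviations of same-numbered arrays from their group means had correlations of 0.065, 0.014 and 0.016. Diabetic arrays 1 and 2 and normal arrays 1 and 3 correlated best with their own number. Diabetic array 3 and normal array 2 did so with each other (0.069). With 3 arrays per group, such correlations cannot settle whether same-numbered arrays share more than a number.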

Other observations

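The profiles of 3 further members were matched in the same way, chosen after their values were seen. Nearest to Ddit4 lay Pllp (distance 0.089), Gabbr1 (0.11) and Smurf2 (0.15), which were also high in diabetic array 1. Pllp had signals of 445, 193 and 192 in the diabetic arrays, against 236, 217 and 239 in the normal arrays. Smurf2, a ubiquitin ligase that acts on Smad proteins, had signals of 752, 388 and 434 in the diabetic arrays, against 525, 444 and 473 in the normal arrays. Nearest to Vegfb lay Atp8b2 (0.032), Emc8 (0.032) and Slc35b1 (0.035), none of which passed the threshold. Nearest to the brighter Epas1 probe set lay Scaf11 (0.071), Pgls (0.082) and Rit1 (0.087), each highest in diabetic array 2. Neighbours were picked for a close profile, so such shared features come with the selection and are only a description.

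Several hypoxia-inducible genes that did not pass had an uneven spread within a group. Tfrc had signals of 381, 411 and 354 in the diabetic arrays, against 592, 388 and 4501 in the normal arrays. Igfbp3 had signals of 576, 1232 and 1661 in the diabetic arrays, against 457, 383 and 345 in the normal arrays (log2 fold change 1.40, adjusted p = 0.0634). Cxcl12 had signals of 499, 1279 and 1218 in the diabetic arrays, against 2518, 1647 and 2575 in the normal arrays (log2 fold change -1.24, adjusted p = 0.0927). For Igfbp3 and Cxcl12 the groups did not overlap, as at 25.7% of all tested probe sets in either direction. Other genes of this list that did not pass had no overlap either, among them Slc2a1, Hk2 and Mxi1.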
